A study of Bos taurus with 18 samples.

Results

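The DLK1-DIO3 locus is an imprinted region of the bovine genome that holds one of the largest groups of miRNA genes known in placental mammals. The members described here were the miRNAs whose names begin with bta-miR- and carry 1 of 41 numbers assigned to this locus, with any letter or arm suffix. They came to 56 of the 1071 miRNAs of the series. Of the 41 numbers, 39 were found, and the other 2 (miR-337 and miR-889) had no miRNA of that name.

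In imprinted genes the copy from one parent is silent. The miRNAs of this locus are known to be cut from long non-coding RNAs of the maternal chromosome, whereas the protein-coding genes DLK1, RTL1 and DIO3 are expressed from the paternal one. The locus is best known for its roles in placenta, brain and skeletal muscle, and in sheep it carries the callipyge mutation of muscular hypertrophy. A mature miRNA of about 22 bases guides a silencing complex to messenger RNAs, mainly through its seed, which is the stretch from base 2 to base 8.

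Small RNA-seq was performed on plasma of 3 Japanese Black steers, castrated males under fattening on 1 farm, each bled when about 20, 25 and 30 months old. From each of the 9 plasma samples, RNA of the exosomal (EX) fraction and of the non-exosomal, free circulating (FC) fraction was extracted with a spin column kit, which gave 6 groups of 3 libraries. The libraries of a group are numbered from 1 to 3, and this number was read as the steer at every age and in both fractions. No steer received a treatment, so age moved together with anything else that changed over the months, and the comparison asked how the plasma profiles of both fractions differed among these ages. Every library was plasma from the same 3 animals, which limits any statement to them, and no count in these data names the tissue from which a plasma miRNA came.

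The reference annotation (RefSeq, assembly ARS-UCD2.0) placed the hairpins of 55 members between DLK1 and DIO3 on 1 chromosome. The first group, on the DLK1 side, held 8 miRNAs, 5 of them (*bta-miR-431*, *bta-miR-433*, *bta-miR-127*, *bta-miR-432* and *bta-miR-136*) inside the span of RTL1, to which they are known to be antisense. The other 48 miRNAs counted as the second group, which runs from *bta-miR-379* to *bta-miR-656*, except that *bta-miR-544b* had both of its annotated hairpins elsewhere in the genome and had no count in any of the 18 libraries.

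The mature sequences of the most abundant members, as deposited with the counts, are shown because the values below rest on them. They are written 5′ to 3′ with the seed in capitals.

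bta-miR-127: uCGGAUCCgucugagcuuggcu
bta-miR-432: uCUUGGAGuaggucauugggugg
bta-miR-379: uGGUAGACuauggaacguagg
bta-miR-411a: aUAGUAGAccguauagcguacg
bta-miR-494: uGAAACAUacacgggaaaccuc
bta-miR-154c: aGAUAUUGcacgguugaucucu
bta-miR-381: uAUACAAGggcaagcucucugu
bta-miR-382: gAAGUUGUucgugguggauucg
bta-miR-369-3p: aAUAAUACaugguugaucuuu
bta-miR-369-5p: aUCGACCGuguuauauucgc

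None of these 10 shared its seed with another member. Over all members, 2 seeds occurred more than once, UCAUAGA in 3 miRNAs of the miR-376 series and UUCUGCA in *bta-miR-544a* and *bta-miR-544b*. These 4 members of the miR-376 series are shown because they differ at few bases. The fifth, *bta-miR-376c*, has a different sequence.

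bta-miR-376a: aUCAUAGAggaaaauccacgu
bta-miR-376b: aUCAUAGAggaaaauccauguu
bta-miR-376d: aUCAUAGAggaaaauccacau
bta-miR-376e: aACAUAGAggaaaauccacauu

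The letters ACANGG (N is any base) were found in 10 members (17.9%), against 30 of all 1071 mature miRNAs (2.80%), the 10 members among them. This motif was noticed on reading the sequences, and miRNAs that arose by duplication share letters by descent. It began at base 4 to base 9, so that it overlapped the seed in 8 of the 10. It is in capitals in the following members, of which *bta-miR-494* has it beyond the seed.

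bta-miR-381: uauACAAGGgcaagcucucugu
bta-miR-369-3p: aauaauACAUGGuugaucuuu
bta-miR-655: auaauACAUGGuuaaccucucu
bta-miR-323: gcacauuACACGGucgaccucu
bta-miR-494: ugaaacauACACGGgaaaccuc

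The total of miRNA counts was between 991354 and 2778618 in the EX libraries and between 3615234 and 12088735 in the FC libraries. The 30-month libraries stood apart from the earlier ones in both fractions. In EX, 258 to 296 miRNAs of any kind had a count above 0 at 30 months against 381 to 446 earlier, and in FC 398 to 452 against 582 to 694. The share of these miRNAs with fewer than 20 counts was 14.4% to 16.2% at 30 months in EX against 26.0% to 34.5% earlier. In FC it was 16.3% to 26.6% against 35.1% to 40.0%. The labels name no batch, so age and any difference in how the 30-month samples were handled cannot be told apart.

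All 56 members together made up a small portion of plasma miRNA, with a median of 0.0508% of the counts of an EX library and 0.0518% of an FC library. Their levels are given as CPM, the counts scaled to the same total of miRNA counts in each library, which for miRNAs needs no correction for length. Of the members, 50 were counted in at least 1 FC library and 33 in at least 1 EX library. The 6 that were never counted were *bta-miR-380-5p*, *bta-miR-329b*, *bta-miR-541*, *bta-miR-409b*, *bta-miR-412* and *bta-miR-544b*. Members counted in all 9 libraries came to 15 in FC and to 4 in EX, namely *bta-miR-127*, *bta-miR-432*, *bta-miR-381* and *bta-miR-382*.

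A few hairpins held most of this signal. In EX, *bta-miR-432* and *bta-miR-127*, which are neighbours inside RTL1, had the highest means, 99.4 ± 66.0 and 97.3 ± 54.4 CPM (SD, n = 9). Their lead came mainly from the 30-month libraries, with means of 170 and 151 CPM there, whereas at 20 months *bta-miR-494* (71.5 CPM) and *bta-miR-379* (63.6 CPM) had higher means than *bta-miR-432* (60.8 CPM) and *bta-miR-127* (58.0 CPM). They were followed by *bta-miR-494* (65.7 CPM), *bta-miR-379* (56.4), *bta-miR-382* (51.3), *bta-miR-381* (44.8), *bta-miR-369-3p* (30.7) and *bta-miR-411a* (29.4). In FC, *bta-miR-127* led with 93.2 ± 23.6 CPM, ahead of *bta-miR-379* (53.5 CPM), *bta-miR-381* (47.5), *bta-miR-494* (41.8), *bta-miR-432* (41.2), *bta-miR-369-3p* (38.5), *bta-miR-382* (36.0) and *bta-miR-154c* (28.7). Neighbours in this order below *bta-miR-127* differed in FC by less than the larger of their SDs over libraries, and so did all neighbours in EX. The 8 leading members held 81.3% of the members' summed mean CPM in EX and 73.3% in FC. By mean CPM the highest members were only in place 161 of all miRNAs in EX (*bta-miR-432*, with *bta-miR-127* in place 162) and in place 157 in FC (*bta-miR-127*).

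**Figure D1:**
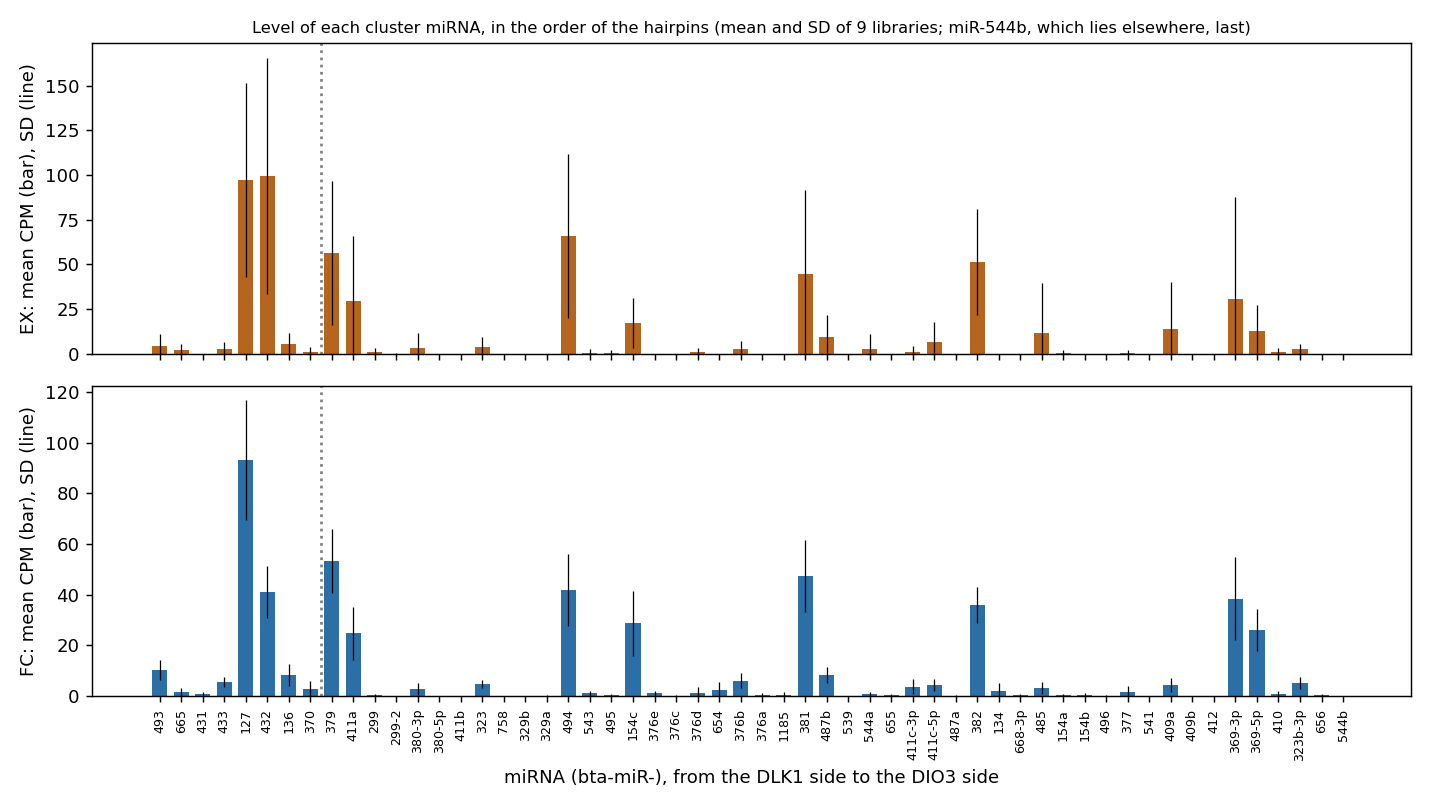
Mean CPM of each member over the 9 EX libraries (upper panel) and the 9 FC libraries (lower panel), with the miRNAs ordered along the chromosome from the DLK1 side to the DIO3 side. Lines show the SD, with the lower end stopped at 0, and the dotted line separates the first from the second group; *bta-miR-127*, *bta-miR-432*, *bta-miR-379*, *bta-miR-494*, *bta-miR-381*, *bta-miR-382* and *bta-miR-369-3p* hold most of the signal in both fractions, and many hairpins between them are near 0.

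Adjacent hairpins could differ widely in level. Next to *bta-miR-127* and *bta-miR-432*, the antisense miRNAs *bta-miR-136* and *bta-miR-433* had 8.43 and 5.73 CPM in FC, and *bta-miR-431* had 0.73 CPM. Within the miR-411 series, *bta-miR-411a* had 24.8 CPM in FC, while *bta-miR-411c-5p* had 4.36, *bta-miR-411c-3p* 3.74 and *bta-miR-411b* 0.012. Within the miR-154 series, *bta-miR-154c* had 28.7 CPM and *bta-miR-154a* and *bta-miR-154b* had 0.364 and 0.411 CPM. The miR-376 series was low throughout, with 6.13 CPM for *bta-miR-376b* as its highest mean in FC. Of *bta-miR-380* only the 3p arm was counted.

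Tests were run on miRNAs that exceeded 5 CPM in 3 or more of the 9 EX or the 9 FC libraries. This selection was passed by 18 members in EX and 20 in FC, with 17 in common. The share of members that passed (32.1% and 35.7%) was near that of all 1071 miRNAs (32.2% and 33.4%). In FC alone *bta-miR-433*, *bta-miR-411c-3p* and *bta-miR-323b-3p* passed, and in EX alone *bta-miR-485* passed. A member could pass through the age at which it was high, and counts over members that passed describe only those.

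In EX, the summed CPM of the 56 members was higher at 30 months in each steer than at either earlier age. The sums were 508, 439 and 461 CPM at 20 months in steers 1, 2 and 3, 495.0, 560 and 316 CPM at 25 months, and 713, 948 and 821 CPM at 30 months. The means were 469 ± 35.2, 457 ± 126 and 827 ± 117 CPM (SD, n = 3). The 30-month libraries did not overlap with the 6 earlier ones, which is a description with no test. With TMM-normalized CPM, which rescales each library by the bulk of its miRNAs, the 30-month mean was 699 CPM against 479 CPM at 25 months, and the groups still did not overlap.

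In FC, the summed CPM did not separate by age. It was 518, 492 and 505 CPM at 20 months, 621, 597 and 336 CPM at 25 months, and 581, 564 and 460 CPM at 30 months. The means were 505 ± 13, 518 ± 158 and 535 ± 65.5 CPM (SD, n = 3).

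A CPM value is relative to the other miRNAs of its library, and these changed with age. The lymphocyte miRNAs *bta-miR-150* and *bta-miR-342* summed to between 113415 and 324692 CPM in the earlier EX libraries and to between 13723 and 27464 CPM at 30 months. In FC these miRNAs also fell, from between 79355 and 230825 CPM earlier to between 14651 and 26926 CPM at 30 months. With both taken out of the library total, a setting added after the data were seen, the mean EX sums were 575, 560 and 845 CPM at 20, 25 and 30 months. The brain miRNAs miR-9 and miR-124 summed to 8.28 to 37.5 CPM in the earlier EX libraries and to 117 to 238 CPM at 30 months, most of it from *bta-miR-9-5p*, with *bta-miR-124a* and *bta-miR-124b* counted in 2 of the 9 EX libraries. In the same libraries the endocrine miRNAs miR-375 and miR-7 summed to 903 to 2016 CPM and to 3925 to 5467 CPM. The sums of the other lists overlapped between the ages in EX. The muscle miRNAs summed to 67.9 to 730 CPM earlier and 48.4 to 561 CPM at 30 months, the liver miRNAs to 12268 to 95293 and 35472 to 108600 CPM, the red cell miRNAs to 25390 to 92244 and 34776 to 54074 CPM, and *bta-miR-223* of myeloid cells and platelets to 9652 to 50282 and 25337 to 29918 CPM. The part of these other sources in the members' sum was not tested.

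Steer 3 at 25 months had the lowest members' sum of its fraction in both extractions, 316 CPM in EX and 336 CPM in FC. The same plasma sample had the highest lymphocyte sum of each fraction, 324692 CPM in EX and 230825 CPM in FC. With the lymphocyte miRNAs out of the total, its sums were 468 and 436 CPM, still the lowest of each fraction. With TMM-normalized CPM they were 449 and 477 CPM, and another library was the lowest in each fraction (412 CPM in EX and 457 CPM in FC).

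**Figure D2:**
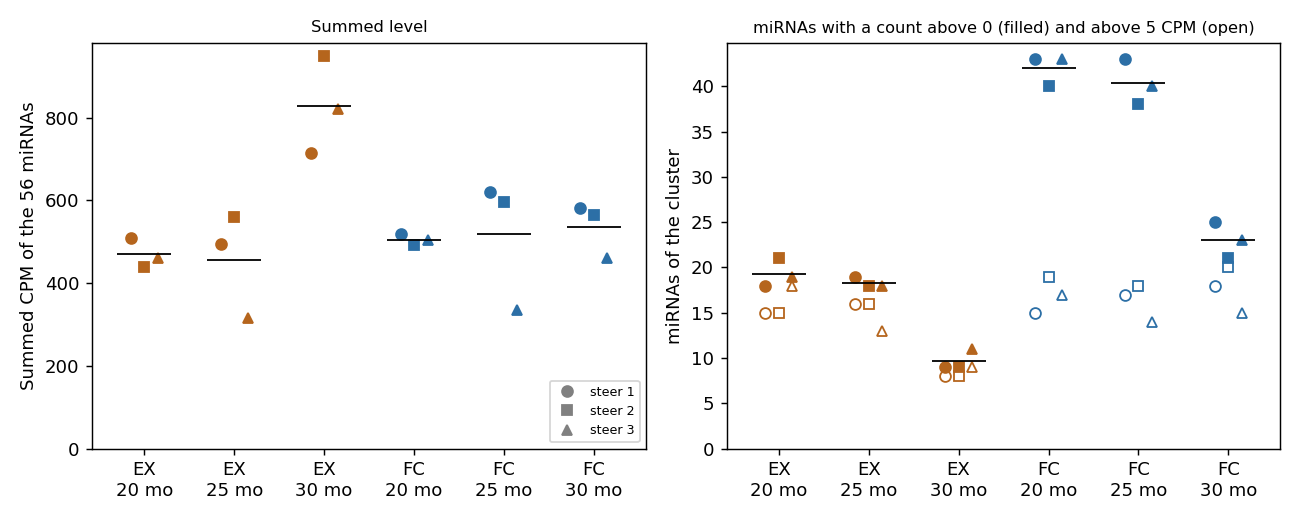
Summed CPM of the 56 miRNAs (left) and the number of them with a count above 0 (right, filled) or above 5 CPM (right, open) in each of the 18 libraries, by fraction and age in months, with symbols for the steers; black lines are means of 3 libraries (right, of the filled points). The EX sums at 30 months, 713 to 948 CPM, lie above all earlier EX sums, while 9 to 11 miRNAs are counted there against 18 to 21 earlier.

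While the summed level in EX was higher at 30 months, fewer members were seen. In EX, 18, 21 and 19 members had a count at 20 months in steers 1, 2 and 3. The numbers were 19, 18 and 18 members at 25 months and 9, 9 and 11 members at 30 months. In FC, 43, 40 and 43 members had a count at 20 months, followed by 43, 38 and 40 members at 25 months and by 25, 21 and 23 members at 30 months. The mean number at 30 months was 52.7% of that at 25 months in EX and 57.0% in FC. Over all miRNAs it was 69.3% and 69.1%.

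Above 5 CPM the numbers changed less in FC than in EX, a difference that was not tested. Members above 5 CPM numbered 16, 15 and 8.33 per EX library at 20, 25 and 30 months, whereas in FC they numbered 17, 16.3 and 17.7. The miRNAs of any kind above 5 CPM numbered 336, 321 and 245 per library in EX and 329, 328 and 329 in FC. The FC libraries were also shallower at 30 months. A count of 0 there allows up to 0.616 to 0.83 CPM (3 counts, counting error only), against 0.248 to 0.431 CPM at the earlier ages. In EX, a count of 0 allows up to 1.51 to 3.03 CPM at 30 months and up to 1.08 to 1.63 CPM earlier. The part of depth in the loss of low members was not tested.

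Of 30 members counted in all 6 earlier FC libraries, 15 were counted in all 3 at 30 months, 6 in 2, 5 in 1, and 4 in none. The 4 were *bta-miR-431*, antisense to RTL1, and *bta-miR-380-3p*, *bta-miR-543* and *bta-miR-377* of the second group. For *bta-miR-380-3p* the counts were 44, 40 and 33 in the 20-month libraries and 34, 49 and 21 in the 25-month libraries, which corresponded to between 1.90 and 7.04 CPM. Pooled over libraries, its level was at least 15.4-fold lower at 30 than at 25 months, against a floor of 3 counts over the group. This kind of bound covers counting error only, not the spread between steers. The corresponding bounds were 8.29-fold for *bta-miR-543*, 7.55-fold for *bta-miR-377* and 4.29-fold for *bta-miR-431*. None of the 4 passed the selection of 5 CPM, so the test between ages left them out. The 4 were picked for having no count at 30 months, which fixed the direction of these bounds. They could also pass a lower filter only through the earlier ages. So the direction of the following calls was fixed by that choice and supports nothing beyond the counts. With a filter of 1 CPM, edgeR's quasi-likelihood test called *bta-miR-380-3p* (FDR, the Benjamini-Hochberg adjusted p, of 0.0288) and *bta-miR-543* (FDR 0.0439) as lower at 30 than at 25 months, where 12.7% of all miRNAs were called. With no filter it called *bta-miR-380-3p* (FDR 0.00647), where 8.84% of all were called. Between 20 and 30 months *bta-miR-380-3p* was called under both settings (FDR 0.0343 and 0.00745), and *bta-miR-377* with no filter (FDR 0.0265). The shares called of all miRNAs there were 4.92% with the filter of 1 CPM and 6.57% with no filter. Over all miRNAs counted in all 6 earlier FC libraries, 67.5% were counted in all 3 at 30 months, against 50% of the members, and 7.47% in none, against 13.3% of the members.

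In EX, the 9 members counted in all 6 earlier libraries included all 8 leading ones and *bta-miR-154c*. At 30 months 4 of the 9 were counted in all 3 libraries (44.4%, against 70.1% of the 288 miRNAs of any kind), 2 in 2 libraries (*bta-miR-379* and *bta-miR-494*) and 3 in 1 library (*bta-miR-411a*, *bta-miR-154c* and *bta-miR-369-3p*).

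For several members, counts at 30 months in EX were high in a steer and 0 in another. For *bta-miR-494* the 3 libraries held 336, 0 and 54 counts, after 83 to 182 in the 6 earlier libraries. For *bta-miR-379*, the first hairpin of the second group, they held 188, 0 and 139 counts, after 178, 151 and 101 and then 52, 88 and 55. The library of steer 2 was the one at 0 in both cases.

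For *bta-miR-369-3p*, the counts at 30 months were 0, 178 and 0, after 13 to 57 in the 6 earlier libraries. For *bta-miR-411a* they were 0, 115 and 0, after 25 to 102. Here steer 2 alone had counts, and *bta-miR-381* was also highest in this library, with 164 counts against 56 and 30 in steers 1 and 3. *bta-miR-409a* had 0, 74 and 43 counts at 30 months and 0 in all 3 libraries at 25 months.

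Of 11 members with at least 50 counts in some EX library at 30 months, 7 had no count in another library of that age. At 20 months this held for 1 of 10 and at 25 months for 0 of 9. Over all miRNAs the shares were 4.51%, 3.54% and 32.1% at 20, 25 and 30 months in EX, and 7.64% at 30 months in FC. So the pattern was present across the EX miRNAs at 30 months, with the members at 63.6%. This comparison was chosen after the counts were seen and has no test, and the EX libraries of steers 2 and 3 at 30 months were the shallowest of the series (991354 and 1082798 counts). The shares over all miRNAs here, and those above on presence at 30 months, were not matched to the level of the members. The part of level was not tested.

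**Figure D3:**
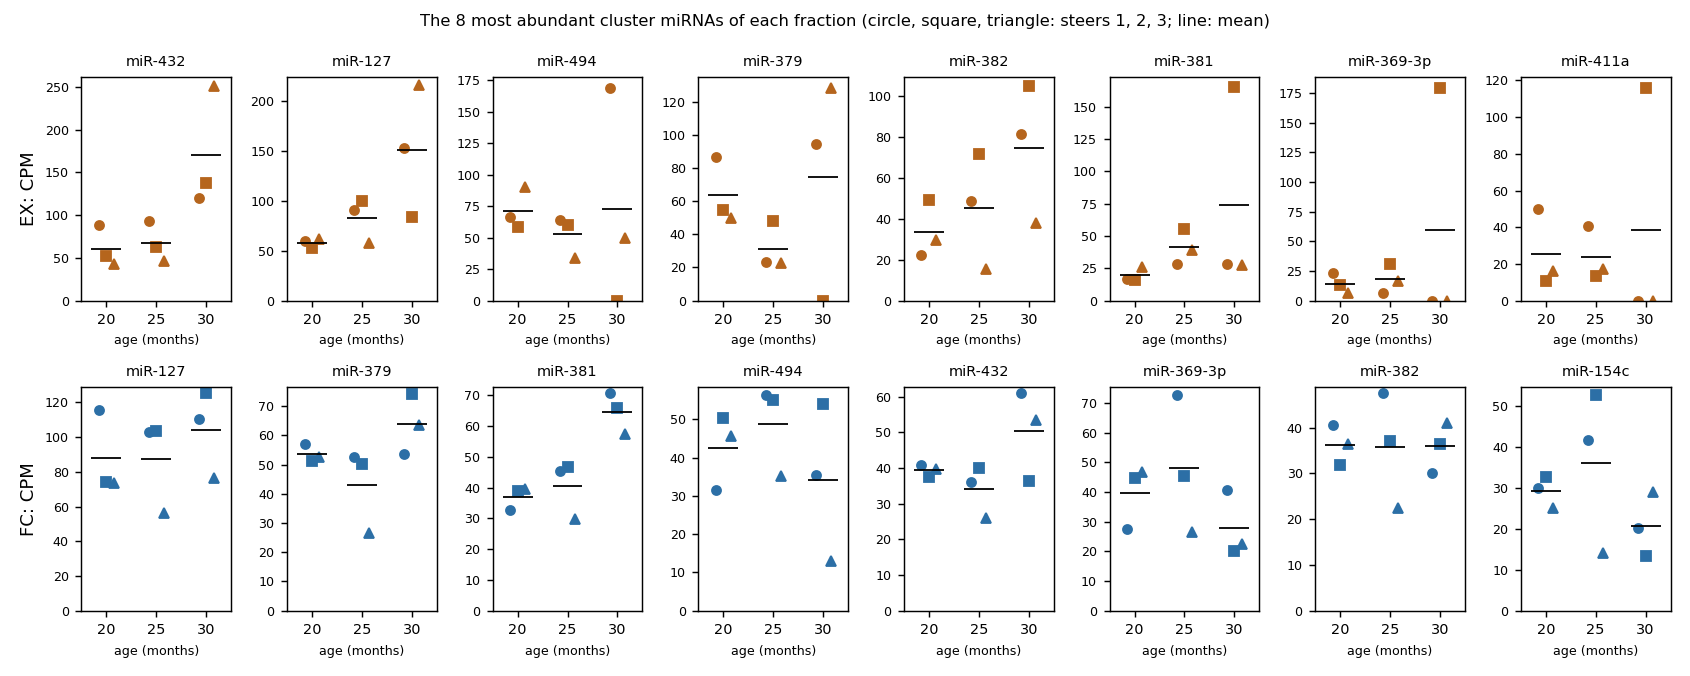
CPM of the 8 members with the highest mean in EX (upper row) and in FC (lower row) at 20, 25 and 30 months, with 1 point for each library, symbols for the steers and lines for means of 3. In EX the 30-month points spread widely, down to 0 for *bta-miR-494*, *bta-miR-379*, *bta-miR-369-3p* and *bta-miR-411a*, whereas all FC points of the 8 members are above 0.

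The test between ages used edgeR's quasi-likelihood method with the steer as a block, and a miRNA was called when its FDR (Benjamini-Hochberg adjusted p over all miRNAs tested) was under 0.05 and its log2 fold change over 1 in size. In EX, 1 of 18 members was called between 25 and 30 months, *bta-miR-154c*, which was lower at 30 months. It passed the selection in EX only through the 20- and 25-month libraries, where it was high, so the direction of the call is not independent of the selection. Over all 345 EX miRNAs tested, 14.2% were called, 10.4% as lower. DESeq2 called 2 of the 18 members and 28.7% of all. The median log2 fold change of the 18 members was -0.84 and that of all miRNAs was -0.51, with 44.4% of the members and 38.6% of all miRNAs higher. Between 20 and 30 months *bta-miR-154c* was again the 1 member called, against 13.3% of all miRNAs (9.86% as lower). Between 20 and 25 months no member was called in EX by edgeR, against 0.29% of all miRNAs. At an unadjusted p under 0.05 there were 0 members (2.32% of all), and DESeq2 also called 0 (1.16% of all).

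No leading member of EX passed the test between 25 and 30 months. From 25 to 30 months the log2 fold change was 0.92 ± 0.70 for *bta-miR-432* (SE, FDR 0.428), and 0.37 ± 0.68 for *bta-miR-127* (FDR 0.789), both by edgeR. For *bta-miR-127* the EX libraries held 59.4, 52.9 and 61.7 CPM at 20 months, 91.1, 100.1 and 57.9 CPM at 25 months, and 153, 83.7 and 216 CPM at 30 months. The 30-month values spread over a wider range than the earlier ones and overlapped with those of 25 months. *bta-miR-409a*, with the counts above, had an unadjusted p of 0.022 and an FDR of 0.104 by edgeR.

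In FC, no member that passed the selection of 5 CPM was called in any comparison of ages. The calls of *bta-miR-380-3p*, *bta-miR-543* and *bta-miR-377* given above were of members below this selection. Between 25 and 30 months, 0 of 20 members passed, none had an unadjusted p under 0.05, and DESeq2 called 0, while edgeR called 15.6% of all 358 FC miRNAs. Of all 358, 37.2% had an unadjusted p under 0.05 by edgeR, and DESeq2 called 26.5%. The lowest FDR among the 20 was 0.206, and their median log2 fold change was -0.17, next to -0.20 for all miRNAs. Between 20 and 30 months it was 0 of 20, against 6.98% of all miRNAs, with 1 member (*bta-miR-381*) at an unadjusted p under 0.05 (29.1% of all) and 0 by DESeq2 (18.2% of all). Between 20 and 25 months no member and 0.0% of all miRNAs were called, with 0 members at an unadjusted p under 0.05 (3.63% of all) and 0 by DESeq2 (0.0% of all).

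The leading FC members had smaller errors than in EX. From 25 to 30 months the log2 fold change was 0.16 ± 0.27 for *bta-miR-127* (SE, FDR 0.692), 0.49 ± 0.32 for *bta-miR-379* (FDR 0.288) and 0.58 ± 0.32 for *bta-miR-381* (FDR 0.222) by edgeR. *bta-miR-381* had 32.7, 39.0 and 39.4 CPM at 20 months, 45.5, 46.7 and 29.7 CPM at 25 months, and 70.6, 65.8 and 57.6 CPM at 30 months. Its 30-month values lay above all earlier ones, although the difference did not pass the test. The log2 fold change was -0.85 ± 0.45 for *bta-miR-369-3p* (FDR 0.206) and -0.75 ± 0.46 for *bta-miR-494* (FDR 0.265) by edgeR.

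The 2 arms of the miR-369 hairpin could be compared within libraries. In FC, the count of *bta-miR-369-3p* over that of *bta-miR-369-5p* was between 1.5 and 2.69 at 20 months, between 1.24 and 2.39 at 25 months, and between 0.745 and 1.19 at 30 months. The 30-month FC ratios lay below all earlier ones. In EX the ratio was 0.245 and 0.522 in the 2 libraries of 20 months that held both arms, and 0.6, 4.07 and 3.42 at 25 months, and no EX library of 30 months held both arms. Part of the 3p counts were not whole numbers, since reads were shared with other miRNAs, and the ratio, chosen after the values were seen, has no test.

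*bta-miR-154c*, of the miR-154 family in the second group, was the member with the clearest difference. In EX it had 69, 55 and 57 counts at 20 months, 43, 65 and 43 counts at 25 months, and 0, 0 and 1 counts at 30 months. In FC it had 361, 236 and 235 counts at 20 months, 402, 366 and 157 counts at 25 months, and 98, 48 and 110 counts at 30 months. So it was counted in every FC library and in all EX libraries up to 25 months.

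As pooled rates of counts, the level in EX was 94.0 times as high at 25 as at 30 months, with an exact 95% interval of 16.6 to 3737 that covers counting error only. At 30 months the FC level was 84.6 times the EX level (15.1 to 3355). In FC the 25-month level was 1.60 times that at 30 months (1.40 to 1.85 from counting error), and by edgeR the FC log2 fold change was -0.75 ± 0.53 (SE, FDR 0.326). At the CPM of the FC fraction of the same plasma, the EX libraries of 30 months would have held 40.0, 13.2 and 31.3 counts, where 0, 0 and 1 were found.

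The FDR of the EX call by edgeR was 0.0413 between 25 and 30 months and 0.0448 between 20 and 30 months. Neither call passed when any 1 steer was left out, although in each steer the count at 30 months was 0 or 1, after 43 to 69 at the earlier ages. The fitted fold change is not given, since with 1 count at 30 months it depends on the prior count. Without steer 1, 2 or 3 the FDR was 0.120, 0.140 and 0.131 for the first comparison, and 0.130, 0.130 and 0.125 for the second, with fewer libraries and members tested. Among the 7 alternatives that kept all steers, 4 called it in each comparison, with FDRs from 4.33e-05 to 0.0796 and from 3.77e-05 to 0.0815.

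EX and FC of the same plasma were compared with the plasma sample as a block, over 330 miRNAs selected in both fractions, 17 of them members. At 20 months 0 of 17 members were called by edgeR (2.12% of all), with 0 at an unadjusted p under 0.05 (17.9% of all) and 0 by DESeq2 (3.33% of all). At 25 months it was 0 of 17 (2.12% of all), with 1 at an unadjusted p under 0.05 (16.4% of all) and 2 by DESeq2, which called 3.94% of all miRNAs. At 30 months *bta-miR-154c* was called as lower in EX (FDR 0.00296), the 1 member against 13.6% of all miRNAs. DESeq2 called 10 of the 17 there, 8 as lower in EX, with 31.2% of all miRNAs, and edgeR's likelihood ratio test 6 of 17, 5 as lower, with 25.2%, so the count of members depended on the test, and most of the 17 had a count of 0 in an EX library of that age. The median log2 fold change of EX over FC at 30 months was -3.14 for the 17 members, and -0.56 for all miRNAs. The -3.14 was the fitted value of *bta-miR-487b*, which had 0, 0 and 36 EX counts at that age. Its mean CPM was higher in EX (11.1) than in FC (8.15), so this median rests on fits to counts of 0. The summed CPM of the 56 members at 30 months was higher in EX (713, 948 and 821) than in FC (581, 564 and 460). The share of members higher in EX (29.4%) was near that of all miRNAs (29.7%). The call of *bta-miR-154c* held in all 7 alternatives with all steers (FDR 1.08e-07 to 0.00345) and without each steer (FDR 0.0227 to 0.0246). In EX *bta-miR-154c* passed the selection only through the 20- and 25-month libraries. Over the mean of the 3 ages *bta-miR-154c* was again the 1 member called (FDR 0.0069, against 9.09% of all), while DESeq2 called 9 of 17 (20.3% of all) and the likelihood ratio test 7 (18.8% of all). The median log2 fold change over the mean of ages was -1.43 for the members and -0.42 for all miRNAs, and counts of 0 bear on this median too. That call was lost without steer 1 (FDR 0.0572) and without steer 2 (FDR 0.0607).

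The interaction term in edgeR, which compares the 25-to-30-month change in EX with that in FC, passed for *bta-miR-154c* (FDR 0.0249), where 4.85% of all miRNAs were called. The FDR was 0.0718, 0.0798 and 0.0756 without steer 1, 2 and 3, with fewer libraries and members tested, so the call was lost each time. In each steer the EX count at 30 months was 0 or 1 and the FC count at least 48. In EX *bta-miR-154c* passed the selection only through the earlier ages, so the direction of the interaction is not independent of the selection.

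*bta-miR-432*, antisense to RTL1, was higher in EX than in FC in 9 of 9 plasma samples. EX held 88.2, 51.8 and 42.4 CPM at 20 months, 93.3, 62.6 and 46.4 CPM at 25 months, and 121, 138 and 251 CPM at 30 months. FC held 40.9, 37.4 and 39.7 CPM, then 36.1, 40.0 and 26.0 CPM, and then 61.0, 36.5 and 53.4 CPM. Over the mean of the 3 ages its log2 fold change of EX over FC was 0.97 ± 0.28 (SE, FDR 0.0328 by edgeR), which missed the fold limit of the call. By FDR alone, 2 of 17 members passed there, against 25.8% of all miRNAs. The log2 fold change was 0.51 ± 0.48 at 20, 0.93 ± 0.48 at 25 and 1.45 ± 0.49 at 30 months, with FDRs of 0.816, 0.413 and 0.0562. Without steer 1, 2 or 3 the FDR for the mean was 0.0925, 0.07 and 0.151, and over the 7 alternatives with all steers it was 9.09e-06 to 0.0632. At 30 months 5 of the 7 alternatives called *bta-miR-432* (FDR 0.000319 to 0.116).

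*bta-miR-127*, from the neighbouring hairpin, did not share this pattern and was higher in EX in 3 of 9 plasma samples. The count of *bta-miR-127* over that of *bta-miR-432* was between 0.606 and 1.60 in EX, with a median of 1.02, and between 1.43 and 3.43 in FC, with a median of 2.16. It was lower in EX in all 9 plasma samples. Being a ratio within a library, it does not depend on the library total; it was chosen after the values were seen and has no test.

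**Figure D4:**
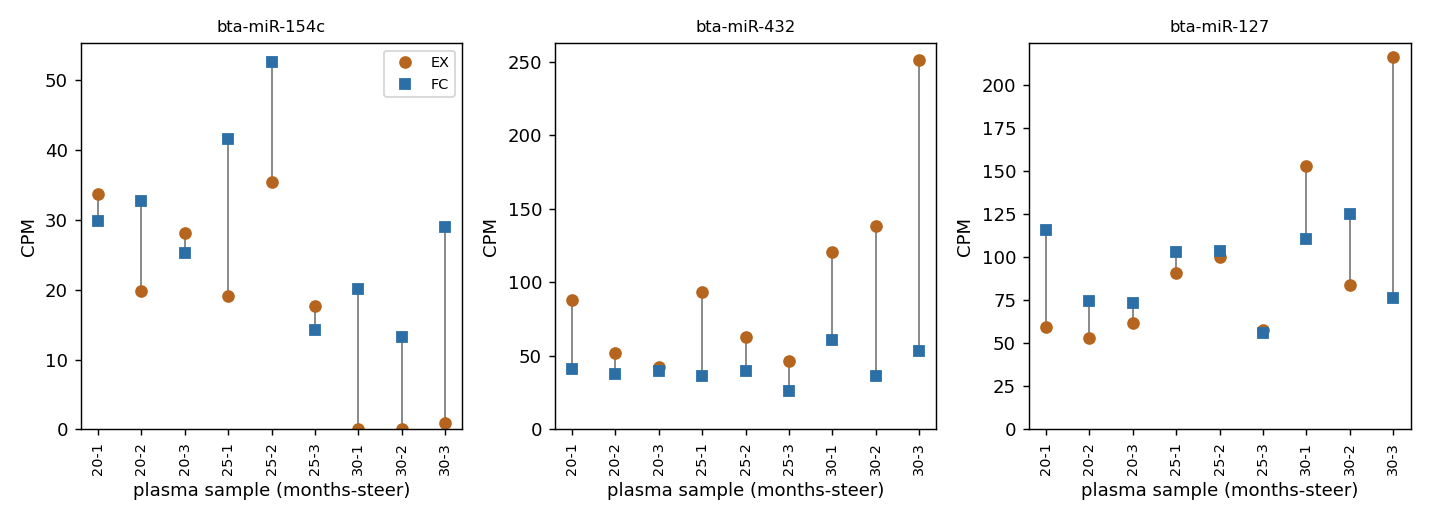
CPM of *bta-miR-154c*, *bta-miR-432* and *bta-miR-127* in EX (circles) and FC (squares) of each of the 9 plasma samples, named by months of age and steer, with a grey line joining both fractions of a sample. *bta-miR-154c* falls to 0, 0 and 0.924 CPM in EX at 30 months while it stays at 13.3 to 28.9 CPM in FC, and *bta-miR-432* is higher in EX in all 9 samples.

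Correlations between leading members ran both ways. Among the 8 leading members of EX, the median Spearman correlation over 9 libraries was 0.050 for 28 pairs, next to 0.037 for all pairs of selected EX miRNAs, with a range of -0.71 to 0.71 and 14 positive pairs. In FC it was 0.17 for 28 pairs, next to 0.067, with a range of -0.52 to 0.67 and 19 positive pairs. These are weak values over libraries that share steers and are given as a description.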

How the data were processed

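Small RNA-seq reads had been trimmed by the authors with Cutadapt 5.0 and Trimmomatic 0.39, mapped with miRDeep2 to a Japanese Black genome derived by them from ARS-UCD1.2, and counted per mature miRNA of miRBase. The values used were the deposited estimated counts, partly not whole where reads were shared (rounded for tests), and the deposited CPM values, handled as a score because a row of totals follows the miRNAs. In 4 FC libraries the lower part of the count table was shifted by 1 row against the CPM table; counts there were recomputed from CPM, which touched 7 values of 4 members. Totals set the precision of each library.

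Differential abundance was tested with edgeR 4.0.16 (TMM, quasi-likelihood, Benjamini-Hochberg), within EX or FC with the steer as a block, and between fractions with the plasma sample as a block. The labels end in a number from 1 to 3 and do not name the steer. The paper states that the same 3 individuals were sampled at each age, and equal numbers were taken as the same steer. The mean correlation of deviations was 0.025 for libraries of the same steer and -0.012 for other pairs in EX, and 0.12 and -0.06 in FC. No pair of the 18 same-group pairs agreed within counting noise. The script was tested on simulated counts. Alternatives were library totals without TMM, DESeq2 1.42.0, edgeR's likelihood ratio test, other filters, no block, the deposited rows, FDR alone and each steer left out. Named with full values were the 8 members with the highest mean CPM in each fraction, those called, and arms or letter series of one number. The members and lists were chosen with earlier results of these data known. Coordinates are not given, since the annotation and the mapping used different builds.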

Additional observations from a re-analysis of the deposited data

Results flagged for a closer look

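For *bta-miR-154c*, the change from 25 to 30 months differed between the fractions by edgeR's interaction test (FDR 0.0249). It was at 0, 0 and 1 counts in EX at 30 months and at 98, 48 and 110 counts in FC. It passed the selection in EX only through the earlier ages, so the direction of the difference is not independent of the selection. The interaction call was lost when any steer was left out. The 30-month EX libraries held 9 to 11 members with a count against 18 to 21 earlier, and the part of that loss in this difference was not tested. Groups of 3 libraries are too small for a test of single outlying libraries.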

How the results depend on the processing

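The numbers of members called were small and moved with the setting. Between 25 and 30 months in EX, where 1 was called, library totals, no filter and a filter of 1 CPM each gave 0, DESeq2 2, the likelihood ratio test 4 and each steer left out 0. Between 20 and 30 months in EX these gave 0, 0, 0, 3, 3 and 0. In FC, no filter and the filter of 1 CPM gave 1 and 2 calls between 25 and 30 months, and 2 and 1 between 20 and 30 months, all among *bta-miR-380-3p*, *bta-miR-377* and *bta-miR-543*. EX against FC at 25 months gave 2 with DESeq2 (3.94% of all miRNAs) and 1 with the likelihood ratio test (2.73% of all). At 30 months it gave 2 with library totals, 10 with DESeq2, 6 with the likelihood ratio test, 4 with no replicate block, 2 with the deposited rows and 1 to 3 with a steer left out. The mean of 3 ages gave 2, 9, 7, 2, 2 and 1 to 2 in the same order, and 2 by FDR alone. The interaction gave 2 with DESeq2 and with the likelihood ratio test, and 0 with a steer left out. Over all miRNAs, DESeq2 and the likelihood ratio test called 28.7% and 26.1% between 25 and 30 months in EX, 28.1% and 24.1% between 20 and 30 months, and 16.4% and 10.6% for the interaction.

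The summed CPM in EX was 411.2 at 20 months and 676 at 30 months without *bta-miR-127* (the highest mean over all 18 libraries), 575 at 20 months with lymphocyte miRNAs out of the total, and 699 at 30 months with TMM. In FC it was 417 and 431.03 at 20 and 30 months without *bta-miR-127*, and 556 at 20 months with lymphocyte miRNAs out. Leaving out a steer gave 450 to 484.5, 405 to 527 and 767 to 884 in EX, and 498 to 511, 466 to 609 and 512 to 573 in FC, at 20, 25 and 30 months. Members above 1 CPM numbered 17.3 in EX at 25 months and 30 and 30 in FC at 20 and 25 months. Those above 5 CPM numbered 16, 15 and 8.33 in EX and 17, 16.3 and 17.7 in FC. Without a steer the numbers present were 18.5 to 20, 18 to 18.5 and 9 to 10 in EX, and 41.5 to 43, 39 to 41.5 and 22 to 24 in FC.

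Among the log2 fold changes of named members under alternatives, 14 changed sign and 164 kept direction and side of the threshold. Between 25 and 30 months in EX, without the replicate block *bta-miR-369-3p* was at 1.23, *bta-miR-411a* at 0.19 and *bta-miR-494* at 0.078, and with the filter of 1 CPM *bta-miR-381* was at -0.017. Leaving out a steer gave -0.073 to 0.81 for *bta-miR-127*, -7.85 to 0.88 for *bta-miR-369-3p*, -0.80 to 1.77 for *bta-miR-379*, -0.74 to 0.55 for *bta-miR-381*, -9.17 to 0.76 for *bta-miR-411a* and -2.31 to 0.59 for *bta-miR-494*. In FC, *bta-miR-382* was at 0.048 with library totals and at -0.24 to 0.25 with a steer left out. The cause was not tested. The SE of the log2 fold change in EX reached 3.33 for *bta-miR-369-3p* and 3.97 for *bta-miR-411a*, which limits what these 3 steers can show of such members.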
